A study of Mus musculus with 19 samples.

Results

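The RANKL axis and the osteoclast programme were followed through 8 genes, chosen by their symbols from the 27998 genes counted in 19 single cell RNA libraries. Tnfsf11 encodes the ligand RANKL, Tnfrsf11a its receptor RANK and Tnfrsf11b the soluble decoy receptor osteoprotegerin. Acp5 encodes tartrate-resistant acid phosphatase, Atp6v0d2 a subunit of the vacuolar proton pump, Dcstamp and Ocstamp transmembrane proteins needed for fusion of osteoclast precursors, and Nfatc1 the transcription factor that drives osteoclast genes. All 8 had transcripts in these data.

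The study profiled cells of the extremity injury site in a mouse model of heterotopic ossification, in which a dorsal scald burn is combined with transection of the Achilles tendon (burn/tenotomy). The labels give 4 libraries at day 0, 3 at day 3, and 4 each at day 7 and day 21 after injury, and 4 more, called p7N3, came from mice given a CD47 activating peptide by daily intraperitoneal injection before and after injury. The labels of all 5 groups name both C57 mice and LysmCre/Tgfb1fx/fx mice, in which the Lysm promoter drives Cre in myeloid cells and Tgfb1 is deleted there, and assign neither genotype to a library. Every label mentions the burn, day 0 included, whereas the results text of the study describes day 0 as tissue without injury. The p7N3 libraries were harvested at day 7, although the label of replicate 4 gives no day, and no vehicle is named for the day 7 libraries. The study compared p7N3 with mice given PBS, and the labels do not say whether the day 7 libraries came from such mice. The labels give no age and tie no library to an animal. The reporting summary of the study states that replicates were meant to gauge variation between mice, so p-values measure the spread between these libraries, and how much of it is technical is not known.

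RANKL on the surface of stromal and osteoblastic cells binds RANK on monocyte-lineage precursors and, together with M-CSF, turns them into osteoclasts, the multinucleate cells that resorb bone. Osteoprotegerin binds RANKL and keeps it from RANK. Signalling through RANK activates NF-kB and calcineurin, induces NFATc1, and leads to the expression of fusion proteins, the proton pump and the enzymes that dissolve mineral and collagen. Osteoclasts accompany bone turnover, and heterotopic bone, once formed, is remodelled by them. Several of these genes are also used elsewhere: activated T cells make RANKL, macrophages express Acp5 and Atp6v0d2, and Nfatc1 acts in endothelial cells and lymphocytes.

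All 8 genes were located in GENCODE vM21 on GRCm38, the assembly also called mm10, as whole genes with their exons and introns, and positions are given here for 7. Tnfsf11 lies on chromosome 14 (78277445 to 78308043, minus strand), Tnfrsf11a on chromosome 1 (105780718 to 105847981, plus strand) and Tnfrsf11b on chromosome 15 (54250619 to 54278484, minus strand). Acp5 lies on chromosome 9 (22126727 to 22135711, minus strand), Atp6v0d2 on chromosome 4 (19876841 to 19922605, minus strand), Dcstamp on chromosome 15 (39745930 to 39760938, plus strand) and Ocstamp on chromosome 2 (165393760 to 165400405, minus strand). The promoters of the ligand and of its receptor are shown because the results below turn on the different cells and days in which these genes were transcribed. They are RefSeq sequences of GRCm38.p6, 250 bases before to 50 bases after the gene start, at chr14:78307994-78308293 on the minus strand for Tnfsf11 and at chr1:105780473-105780772 on the plus strand for Tnfrsf11a. Capitals mark exact matches to TATAA or GGAAA on either strand.
Tnfsf11: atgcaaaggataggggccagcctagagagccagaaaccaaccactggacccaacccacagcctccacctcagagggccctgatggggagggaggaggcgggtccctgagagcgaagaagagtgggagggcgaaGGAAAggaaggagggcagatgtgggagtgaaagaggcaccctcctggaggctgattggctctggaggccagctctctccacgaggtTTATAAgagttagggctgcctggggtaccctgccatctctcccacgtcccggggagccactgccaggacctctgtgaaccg
Tnfrsf11a: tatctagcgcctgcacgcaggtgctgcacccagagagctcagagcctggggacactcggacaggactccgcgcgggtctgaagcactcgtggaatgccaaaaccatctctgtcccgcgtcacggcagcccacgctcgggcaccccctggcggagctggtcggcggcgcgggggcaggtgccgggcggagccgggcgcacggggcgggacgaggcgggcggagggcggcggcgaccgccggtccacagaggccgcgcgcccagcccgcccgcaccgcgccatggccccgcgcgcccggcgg
The window of Tnfsf11 holds 61.7% G and C and 7 CpG dinucleotides, with 2 overlapping matches to TATAA, which read on opposite strands, and 1 match to GGAAA, the core of sites bound by NFAT proteins. The window of Tnfrsf11a holds 76.7% G and C and 43 CpG dinucleotides, more than in 97.4% of the promoters in the table, and has no match to TATAA or to GGAAA. Neither window matches GAGGAA, the core bound by PU.1. The AP-1 site, searched as TGANTCA, is in neither window. Among 32851 promoters of the same length, 24.9% held TATAA, 61.3% GGAAA, 28.3% GAGGAA and 7.81% TGANTCA on either strand. Such a match is a description of letters, not a site, and its absence says only that these letters are not in this window.

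Transcripts were captured in droplets and marked with unique molecular identifiers (UMIs), which count PCR copies of a molecule once, and the deposited values are UMIs per gene and cell. After barcodes under 500 genes or over 25% mitochondrial UMIs had been dropped, 39541 cells remained. The 4 libraries of day 0 held 3019467 to 5383855 UMIs and all later ones 11064153 (day 21) to 39870492 (day 7), so that low levels at day 0 were the least precise. Levels are given as CPM, counts of a gene scaled to 1000000 UMIs of a library or of its cells of a type, and a CPM does not distinguish fewer expressing cells from less RNA per cell when it is taken over all cells. Of the 171 pairs of libraries, 1 shared over 1% of its cell barcodes (at most 1.26%). Cells were clustered without the 8 genes and without the pathway lists used below, and clusters were named from marker genes with the ending "-like". Both main classes fitted their names: Pdgfra, a surface marker of fibroblasts, was at 79.6 to 416 CPM in stromal-like and at most 6.50 in monocyte/macrophage-like sums, and Adgre1, the F4/80 gene, at 240 to 409 against at most 17.2 CPM. Monocyte/macrophage-like cells were 10.9% of a library's cells at day 0, 65.1% at day 3, 36.6% at day 7, 13.4% at day 21 and 40.9% with p7N3 (means), and stromal-like cells 32.3%, 14.02%, 42.9%, 36.2% and 36.8%.

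The ligand and the decoy receptor were transcribed in stromal cells and the receptor in myeloid cells. Of the 6635 UMIs of Tnfsf11, 94.2% lay in stromal-like cells, with 1.4% each in monocyte/macrophage-like and T/NK lymphocyte-like cells. Monocyte/macrophage-like cells held 65.1% of the 5554 UMIs of Tnfrsf11a. Another 14.96% were in a cluster of 644 cells led by Mmp9, Acp5 and Ctsk, the genes of a gelatinase, the acid phosphatase and cathepsin K, which is called the Mmp9/Acp5/Ctsk cluster here. Of the 2466 UMIs of Tnfrsf11b, 60.1% were in stromal-like and 33.9% in tenocyte-like cells. The Mmp9/Acp5/Ctsk cluster held 53.4% of the UMIs of Acp5, 41.0% of Atp6v0d2, 48.1% of Dcstamp, 44.4% of Ocstamp and 12.5% of Nfatc1.

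These shares also follow the number of cells of a type, and mean levels per cell type, shown in the heat map, gave another order. Tnfrsf11a stood at 73.8 ± 22.5 CPM (SD over libraries) in the Mmp9/Acp5/Ctsk cluster, 42.1 ± 16.9 in lymphatic endothelial-like cells, 35.2 ± 5.53 in monocyte/macrophage-like cells, 28.5 ± 17.6 in granulocyte-like cells and 15.3 ± 7.48 in dendritic cell-like cells, and the SDs of neighbours in this order overlapped. Tnfsf11 was at 41.4 ± 36.8 CPM in T/NK lymphocyte-like cells and 21.6 ± 17.8 in stromal-like cells, which overlapped widely. Tnfrsf11b was at 54.0 ± 57.0 CPM in tenocyte-like and 6.08 ± 3.86 in stromal-like cells. Nfatc1, the least restricted of the 8, was at 191 ± 67.5 CPM in the cluster, 117 ± 66.5 in lymphatic endothelial-like, 60.8 in T/NK lymphocyte-like, 32.8 in stromal-like cells and also present, at 26.2, in the monocyte/macrophage-like class. Since Acp5 and Atp6v0d2 are among the genes that lead the cluster, their levels there are a description.

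**Figure D1:**
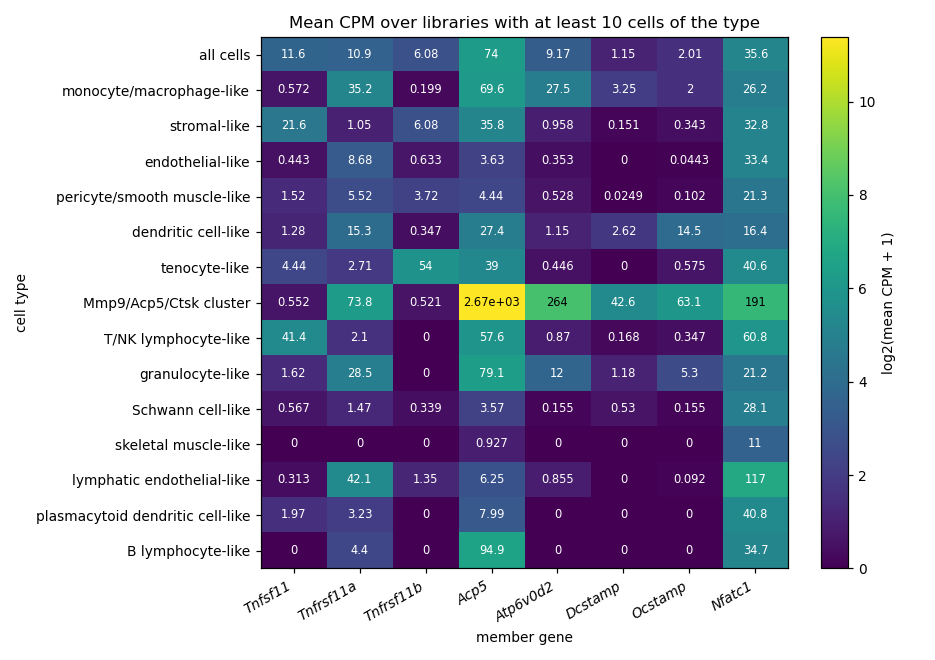
Mean CPM of each of the 8 genes (columns) in each cell type (rows) over libraries with at least 10 cells of that type, coloured by log2(CPM + 1) with the CPM printed in each cell. The stromal-like row holds 21.6 CPM of Tnfsf11 and the monocyte/macrophage-like row 35.2 CPM of Tnfrsf11a, while Acp5 reaches 2665 CPM in the Mmp9/Acp5/Ctsk cluster.

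The comparison of both lineages within the same libraries asked which of these genes separate monocyte/macrophage-like from stromal-like cells. Of 6 members tested, 3 were higher in monocyte/macrophage-like cells and 2 in stromal-like cells, against a background of 83.4% of all 12041 genes called, and Dcstamp and Ocstamp did not pass the filter on low counts. With the library as a block in edgeR's quasi-likelihood fit, the log2 fold change of monocyte/macrophage-like over stromal-like cells was 5.18 ± 0.17 (SE) for Tnfrsf11a, with an adjusted p of 6.99e-19. It was 4.94 ± 0.24 for Atp6v0d2 (adjusted p = 1.16e-14) and 1.31 ± 0.29 for Acp5 (adjusted p = 0.000275). Tnfsf11 was lower by a log2 value of -4.95 ± 0.12 (adjusted p = 9.29e-20) and Tnfrsf11b by -4.39 ± 0.21 (adjusted p = 7.66e-16). Tnfsf11 and Tnfrsf11b reached at most 2.07 and 1.56 CPM in monocyte/macrophage-like sums. Tnfrsf11a and Atp6v0d2 reached at most 2.89 and 2.85 CPM in stromal-like sums. None of these genes could have passed the filter through the lineage where it was near 0. For them a call could thus only be in the direction given. Nfatc1 differed by -0.16 ± 0.08 (adjusted p = 0.0696), or by -0.28 with RLE scaling (adjusted p = 0.0045), with the sign turned to 0.27 once the Mmp9/Acp5/Ctsk cluster was counted with the monocyte/macrophage-like cells. Another scaling (RLE) moved the median of all genes in this comparison by -0.12, less than any of the 5 called differences.

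Tnfsf11, the ligand, was nearly absent before injury and present from day 3. In sums over all cells the day 0 libraries held 0, 1.32, 0.236 and 0.958 CPM and the day 3 libraries 18.9, 9.82 and 11.1 CPM. The day 7 libraries held 15.8, 13.5, 15.6 and 16.7 CPM, and the day 21 libraries 4.34, 3.16, 3.50 and 12.3 CPM. Every library from day 3 on lay above every day 0 library, and every day 21 library below every day 7 library. The log2 fold change against day 0 was 4.94 ± 0.53 at day 3 (adjusted p = 2.81e-05), 5.00 ± 0.38 at day 7 (adjusted p = 3.22e-06) and 3.63 ± 0.82 at day 21 (adjusted p = 0.00425), 3 comparisons that share the day 0 libraries. With 9 UMIs at day 0, the gene passed the filter on low counts through the later libraries, so a call against day 0 could only be of a rise. From day 7 to day 21 it fell by 1.33 ± 0.39 on the log2 scale (adjusted p = 0.0216). That call was lost without day 21 replicate 1, 2 or 3 (adjusted p = 0.0612, 0.0544 and 0.0539), each of which leaves replicate 4, at 12.3 CPM, in the group.

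**Figure D2:**
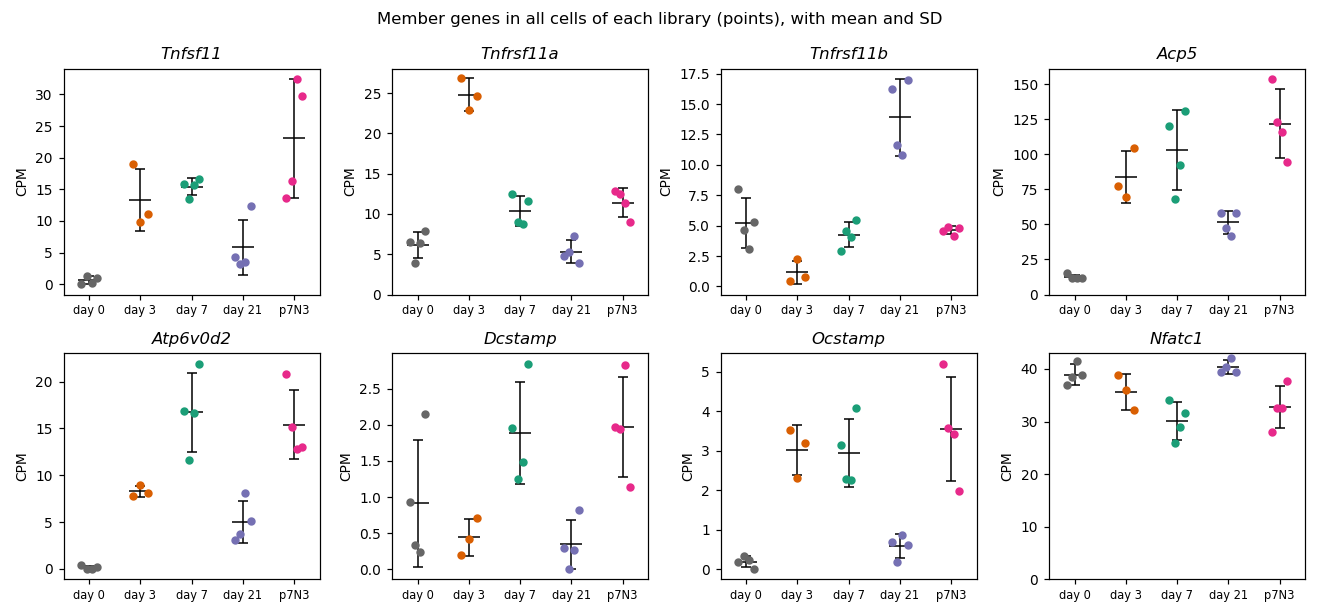
CPM of the 8 genes in sums over all cells, one panel per gene, with a point per library and the mean and SD of each group (day 0, 3, 7, 21 and p7N3). Tnfsf11 has a mean of 0.630 CPM at day 0 and 15.4 at day 7, Tnfrsf11b is highest at day 21, and Nfatc1 stays between 25.9 and 42.1 CPM in every library.

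Within stromal-like cells the same rise was seen. A single UMI of Tnfsf11 was found in the 1187 stromal-like cells of day 0, with 0, 1.13, 0 and 0 CPM in the 4 libraries, while the day 3 libraries held 54.9, 23.9 and 34.0 CPM. The day 7 libraries held 30.5, 20.2, 22.7 and 26.2 CPM and the day 21 libraries 6.14, 6.17, 6.56 and 25.4 CPM, so that replicate 4 of day 21 stood among the day 7 libraries and the other three well below them. The pooled ratio to day 0 was 231 at day 3 (95% interval 41.3 to 9123), 155 at day 7 (27.7 to 6113) and 88.5 at day 21 (15.8 to 3502), where the intervals cover counting error only. The edgeR test called all 3 rises (adjusted p = 1.44e-06, 3.79e-07 and 0.00311). With 1 UMI at day 0, Tnfsf11 passed the filter on low counts through the later libraries. A call against day 0 could thus only be of a rise. The fall from day 7 to day 21 in these cells was -1.001 ± 0.40 on the log2 scale and did not pass (adjusted p = 0.0762). Without day 21 replicate 4 it was -1.96 (adjusted p = 0.000172).

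The share of stromal-like cells with a Tnfsf11 UMI moved with depth as well as with day. As the mean over libraries it was 0.169% at day 0, 38.3% at day 3, 16.9% at day 7, 7.44% at day 21 and 24.3% with p7N3, at median depths of 5178, 34692.5, 13943.5, 12703 and 16204 UMIs per cell. After thinning every cell to 1500 UMIs the shares were 0% (which allows up to 0.269%), 4.502%, 3.24%, 0.983% and 4.18%. Endothelial-like cells of day 7, which stood for the background of free RNA, had a UMI in 0.580% of cells (0.116% thinned, median depth 9901) and monocyte/macrophage-like cells of day 7 in 0.336% (0.0800% thinned, median depth 5286). Among endothelial-like cells of the other days, 1 of 85 had a UMI at day 3 and 0 of 701 at day 21, which allows a share of up to 0.428%. The thinned shares of stromal-like cells from day 3 on all lay above both day 7 values.

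Different clusters made up the stromal-like cells on different days, and Tnfsf11 was concentrated in some of them. At day 0, 60.4% of stromal-like cells were in a cluster led by Clec3b and Myoc, whereas at day 3, 90.7% were in a cluster led by Prg4 and Cxcl14, which held 39.1 ± 15.1 CPM of Tnfsf11 over 3 libraries. At day 7, 3 clusters, led by Sfrp1, by Cxcl5 with the histone gene Hist1h2ap, and by Acta2 with Tnc, were 39.5%, 35.6%, 28.2% and 50.8% of the stromal-like cells of the 4 libraries. They held 91.5%, 80.3%, 75.8% and 91.2% of the stromal Tnfsf11 UMIs, at 53.8, 38.3, 45.4 and 38.9 CPM, against 5.35, 6.90, 8.83 and 5.97 CPM in all other stromal-like cells of the same libraries. In each day 7 library the level in these clusters was thus several times that in the rest. At day 21 the 3 clusters were 6.19%, 2.83%, 3.29% and 13.5% of stromal-like cells, the highest share being that of replicate 4. Outside them, Tnfsf11 stood at 3.40, 5.00, 4.75 and 13.2 CPM at day 21. These clusters were picked after their levels were seen, so no test was made.

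Markers of other cells also moved within the stromal-like sums. The summed level of 6 granulocyte markers lay between 4.28 and 22.6 CPM on day 0, between 1409 and 2378 on day 3, between 99.3 and 193 on day 7 and between 5.36 and 26.7 on day 21. The summed level of 9 monocyte/macrophage markers ranged from 45.5 to 129 CPM at day 0 and from 1310 to 1443 at day 3, then from 371 to 578 (day 7) and from 103 to 214 (day 21), against 18787 to 33714 CPM in monocyte/macrophage-like cells themselves. The T/NK lymphocyte markers stayed at 1.41 to 9.04 CPM in the stromal-like sums. Tnfsf11 in monocyte/macrophage-like cells was at most 2.07 CPM in any library, and its level in granulocyte-like cells is not given here. The part of RNA of other cells in the stromal level of Tnfsf11 was not tested.

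**Figure D3:**
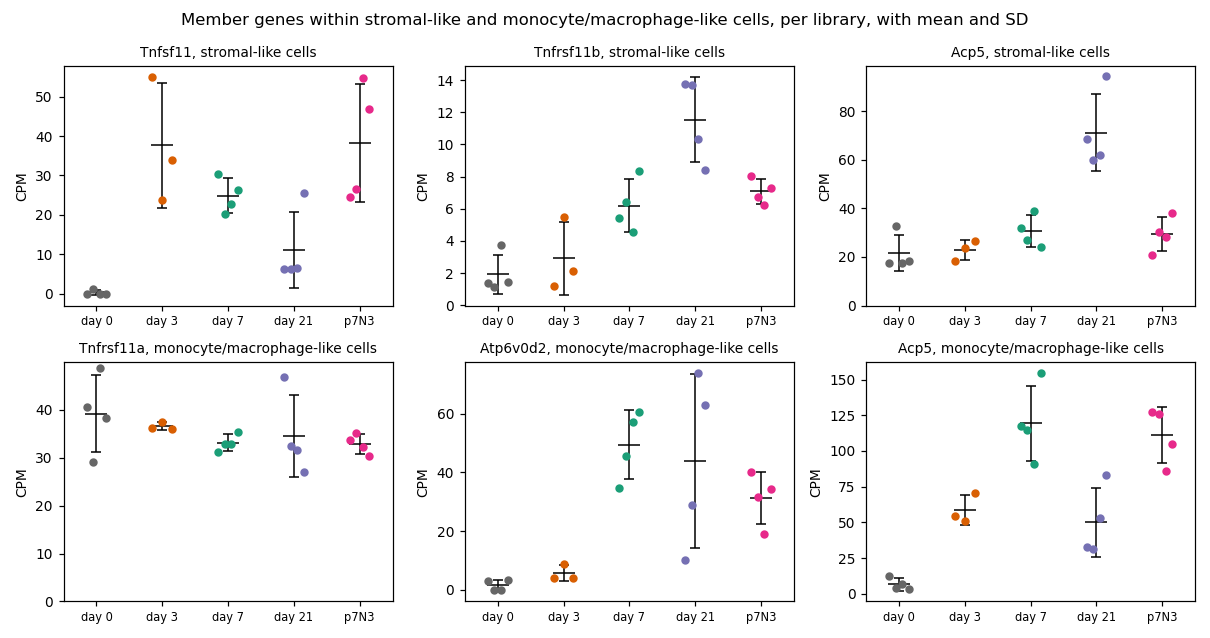
CPM per library of Tnfsf11, Tnfrsf11b and Acp5 in stromal-like cells (upper row) and of Tnfrsf11a, Atp6v0d2 and Acp5 in monocyte/macrophage-like cells (lower row), with the mean and SD of each group. Tnfsf11 in stromal-like cells is at most 1.13 CPM at day 0 and at least 20.2 at day 7, and Tnfrsf11a in monocyte/macrophage-like cells shows no such step.

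Tnfrsf11b, the decoy receptor, took another course. Over all cells it was at 7.99, 4.64, 3.07 and 5.27 CPM at day 0, 0.436, 2.25 and 0.753 CPM at day 3, 2.95, 4.54, 4.08 and 5.44 CPM at day 7, and 16.2, 11.7, 10.8 and 17.001 CPM at day 21. All day 3 libraries lay below and all day 21 libraries above those of the other days. The log2 fold change against day 0 was -1.84 ± 0.55 at day 3 (adjusted p = 0.0131, or 0.0503 without day 0 replicate 1), -0.14 ± 0.29 at day 7 (adjusted p = 0.684) and 1.55 ± 0.28 at day 21 (adjusted p = 0.0012). For day 3 against day 0, Tnfrsf11b passed the filter on low counts through the day 0 libraries, so that call could only be of a fall. From day 7 to day 21 it rose by 1.69 ± 0.23 (adjusted p = 0.000556). Within stromal-like cells Tnfrsf11b was at 1.36, 1.13, 3.74 and 1.42 CPM at day 0, 1.17, 5.47 and 2.10 at day 3, 5.40, 6.40, 4.55 and 8.36 at day 7, and 13.8, 13.7, 10.3 and 8.39 at day 21. There the day 3 libraries overlapped with day 0, and Tnfrsf11b did not pass the filter on low counts for that comparison. It rose against day 0 by 1.64 ± 0.41 at day 7 (adjusted p = 0.00445) and 2.52 ± 0.37 at day 21 (adjusted p = 0.000223), and by 0.91 ± 0.22 from day 7 to day 21 (adjusted p = 0.01). With 13 stromal-like UMIs at day 0, Tnfrsf11b passed the filter for day 21 against day 0 through the day 21 libraries. That call could thus only be of a rise. The day 7 direction rested on the definition of the lineage: with the tenocyte-like cluster added, the change was -0.97 (adjusted p = 0.0094). Tenocyte-like cells held 125.5 ± 90.5 CPM at day 0 (2 libraries) and 31.2 ± 5.48 CPM at day 21. They were 1.34% of a library's cells at day 0, 0.0156% at day 3, 0.353% at day 7 and 16.6% at day 21 (means). Of the Tnfrsf11b UMIs, 13 of 92 lay in stromal-like cells at day 0 and 322 of 1082 at day 21. The part of these shares in the changes over all cells, the fall at day 3 and the rise to day 21, was not tested.

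The UMI ratio of ligand to decoy receptor over all cells put both courses together. It was 0, 0.286, 0.0769 and 0.182 in the day 0 libraries, 43.4, 4.36 and 14.7 at day 3, 5.37, 2.98, 3.82 and 3.06 at day 7, 0.267, 0.271, 0.325 and 0.726 at day 21, and 3.00, 3.33, 7.77 and 6.20 with p7N3. Every library of day 3, day 7 and p7N3 was above 1 and every library of day 0 and day 21 below it. Within stromal-like cells the ratio at day 21 was 0.445, 0.452, 0.636 and 3.03, so that replicate 4 there lay above 1. The ratio compares 3' tag counts of a pair of genes in the same cells, is a description, and was not tested. The part of the tenocyte-like share, given above, in the ratio over all cells was not tested either.

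**Figure D4:**
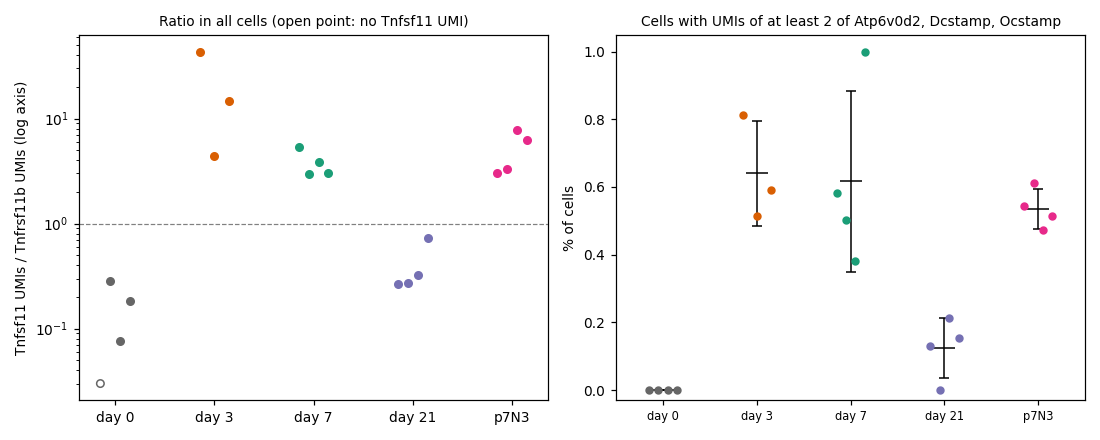
Left, the ratio of Tnfsf11 to Tnfrsf11b UMIs per library over all cells, on a log axis with a dashed line at 1 (an open point marks a library with no Tnfsf11 UMI). Right, the percentage of cells per library with UMIs of at least 2 of Atp6v0d2, Dcstamp and Ocstamp, which is 0 in all day 0 libraries and reaches 0.999% in a day 7 library.

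Tnfrsf11a, the receptor, rose over all cells at days 3 and 7, and no change within monocyte/macrophage-like cells passed the test. Over all cells the day 0 libraries held 6.50, 3.97, 6.38 and 7.90 CPM, the day 3 libraries 26.9, 22.9 and 24.6, the day 7 libraries 12.4, 8.95, 8.70 and 11.5, and the day 21 libraries 4.83, 5.33, 7.27 and 3.93. The day 3 libraries stood above all others, those of day 7 between, and those of day 0 and day 21 overlapped. The log2 fold change against day 0 was 2.32 ± 0.17 at day 3 (adjusted p = 2.46e-06), 0.90 ± 0.20 at day 7 (adjusted p = 0.00304) and -0.11 ± 0.24 at day 21 (adjusted p = 0.72), and -1.02 ± 0.19 from day 7 to day 21 (adjusted p = 0.00257). Within monocyte/macrophage-like cells the libraries held 40.6, 29.1, 48.8 and 38.3 CPM at day 0, 36.3, 37.5 and 36.0 at day 3, 31.3, 32.9, 32.9 and 35.4 at day 7, and 46.8, 32.4, 31.6 and 27.1 at day 21. These overlapped throughout. The log2 differences from day 0 were -0.06 ± 0.16, -0.04 ± 0.18 and -0.10 at days 3, 7 and 21 (adjusted p = 0.811, 0.883 and 0.797). Beside this stands the share of these cells in the libraries, given above, which was 65.1% at day 3 and 10.9% at day 0.

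A Tnfrsf11a UMI was found in 14.4% of monocyte/macrophage-like cells at day 0, 28.9% at day 3, 16.9% at day 7 and 22.3% at day 21, and after thinning in 6.24%, 4.66%, 4.78% and 5.09%. In stromal-like cells the thinned share was 0% to 0.219%. The clusters behind the class changed with the day: 80.1% of the day 0 cells were in a cluster led by Ccl8, C1qc and Folr2, the day 3 cells were mostly in clusters led by Pf4 and Ccl6 (45.7%) and by Chil3 and Ifitm6 (41.8%), and the day 7 cells were spread over clusters led by Ms4a7 and C1qa (36.8%), Cd74 and H2-Aa (23.0%) and Arg1, Cxcl3, Mmp12 and Spp1 (20.1%).

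Acp5, the acid phosphatase by which osteoclasts are stained, rose at every day after injury. Over all cells it was at 15.05, 11.9, 11.8 and 11.5 CPM at day 0, 77.0, 69.7 and 105 at day 3, 120, 67.9, 92.4 and 131 at day 7, and 58.3, 47.4, 41.5 and 58.2 at day 21. No library after injury overlapped with day 0. The log2 fold change was 3.07 ± 0.17 at day 3 (adjusted p = 6.55e-07), 3.20 ± 0.22 at day 7 (adjusted p = 2.05e-06) and 2.18 ± 0.16 at day 21 (adjusted p = 1.12e-05), with a fall by 1.02 ± 0.21 from day 7 to day 21 (adjusted p = 0.00393).

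Inside monocyte/macrophage-like cells Acp5 went from 12.5, 3.64, 6.50 and 3.19 CPM at day 0 to 54.6, 50.7 and 70.7 at day 3 and 118, 115, 90.9 and 155 at day 7, and was at 32.4, 31.6, 52.7 and 82.9 at day 21. Day 7 stood above all other days without overlap. In the same sums the granulocyte markers lay between 16.3 and 68.8 CPM on day 0, between 1738 and 2680 on day 3, between 166 and 405 on day 7 and between 51.9 and 402 on day 21. The 8 dendritic cell markers lay between 800.3 and 983 CPM on day 0, between 101 and 155 on day 3, between 126 and 208 on day 7 and between 210.1 and 476 on day 21, and the part of these cells in the values of the class was not tested. The dendritic cell list includes Clec10a, also a leading gene of the macrophage cluster led by Ccl8, C1qc and Folr2. That cluster was 80.1% of the class at day 0. Acp5 rose by 2.97 ± 0.36 at day 3 (adjusted p = 2.88e-05), 4.16 ± 0.32 at day 7 (adjusted p = 4.09e-08) and 2.83 ± 0.51 at day 21 (adjusted p = 0.000505) on the log2 scale, and fell by 1.27 ± 0.25 from day 7 to day 21 (adjusted p = 0.00529). With 12 UMIs at day 0 in this class, Acp5 passed the filter on low counts through the later libraries. A call against day 0 could thus only be of a rise. Of the macrophage clusters, that led by Arg1, Cxcl3, Mmp12 and Spp1 held the most Acp5 at day 7, with 262 ± 45.5 CPM. In stromal-like cells Acp5 also rose against day 0, and from day 7 to day 21 it rose where it fell in the macrophages: the libraries held 17.7, 32.8, 17.6 and 18.5 CPM at day 0, 18.5, 23.6 and 26.6 at day 3, 31.9, 27.2, 39.1 and 24.2 at day 7, and 68.7, 59.9, 61.8 and 94.5 at day 21. There Acp5 was highest at day 21, above every other library, with a log2 change of 1.87 ± 0.20 from day 0 (adjusted p = 2.5e-05) and 1.26 ± 0.18 from day 7 (adjusted p = 0.000885). The rise to day 7 was 0.63 ± 0.21 (adjusted p = 0.0211, and up to 0.0787 without day 0 replicate 1, 3 or 4). At day 21 the cluster led by Clec3b and Sfrp4, 60.7% of the stromal-like cells, held 91.8 ± 1.97 CPM, and at day 0 it held 66.3 ± 8.24 CPM but was 22.0% of them.

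Atp6v0d2, the pump subunit, was found as 3 UMIs in all day 0 cells together. Over all cells it was at 0.371, 0, 0 and 0.240 CPM at day 0, 7.79, 8.96 and 8.08 at day 3, 16.8, 11.6, 16.6 and 21.9 at day 7, and 3.07, 3.71, 8.14 and 5.17 at day 21. The pooled ratio to day 0 was 46.6 at day 3 (95% interval 15.9 to 227), 93.1 at day 7 (31.8 to 452) and 27.0 at day 21 (9.16 to 132), and edgeR called each rise (adjusted p = 1.62e-06, 2.16e-06 and 0.000243). The intervals cover counting error only. With 3 UMIs at day 0, Atp6v0d2 passed the filter on low counts through the later libraries. A call against day 0 could thus only be of a rise. Day 7 was above all other days, and the fall to day 21 was -1.79 ± 0.29 (adjusted p = 0.00143). Within the monocyte/macrophage-like class the libraries held 3.13, 0, 0 and 3.19 CPM at day 0, 3.93, 8.71 and 4.19 at day 3, 34.7, 45.6, 57.1 and 60.6 at day 7, and 10.1, 28.9, 73.8 and 63.1 at day 21. The rise to day 7 was 4.85 ± 0.53 (adjusted p = 2.38e-06), where the gene again passed the filter through the later libraries. At day 21 the libraries spread on both sides of day 7, and that difference was -0.20 ± 0.35 (adjusted p = 0.767). The macrophage cluster led by Arg1 and Spp1 held 154 ± 52.1 CPM at day 7.

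Dcstamp and Ocstamp, the fusion genes, were the scarcest of the 8, with 594 and 1173 UMIs in all. Ocstamp over all cells was at 0.186, 0.331, 0.236 and 0 CPM at day 0, 3.52, 2.31 and 3.21 at day 3, 3.16, 2.28, 2.27 and 4.09 at day 7, and 0.682, 0.181, 0.876 and 0.616 at day 21. Days 3 and 7 stood above days 0 and 21 without overlap. From 3 UMIs at day 0, the pooled ratio was 16.7 at day 3 (5.64 to 81.4) and 16.5 at day 7 (5.5998 to 80.2), and both rises were called (adjusted p = 3.29e-05 and 7.49e-05), as was the fall by 2.31 ± 0.35 from day 7 to day 21 (adjusted p = 0.00106). At day 21 the ratio to day 0 was 3.41 (1.09 to 17.2), but the libraries of both days overlapped and the gene was not tested by edgeR. These intervals cover counting error only. With 3 UMIs at day 0, Ocstamp passed the filter on low counts through the later libraries. A call against day 0 could thus only be of a rise. Dcstamp was at 0.929, 0.331, 0.236 and 2.16 CPM at day 0, 0.201, 0.415 and 0.713 at day 3, 1.96, 1.25, 1.49 and 2.85 at day 7, and 0.292, 0, 0.263 and 0.821 at day 21. It differed from day 0 by 1.17 ± 0.54 at day 7 (adjusted p = 0.0792), which passed without day 0 replicate 4 (1.97, adjusted p = 0.0155), and fell by 2.19 ± 0.56 from day 7 to day 21 (adjusted p = 0.0117). In both comparisons Dcstamp passed the filter on low counts through the day 7 libraries, and Ocstamp did so for its fall to day 21. Neither gene reached the filter's level in all libraries of the other day. Such calls could thus only be of a rise from day 0 or a fall to day 21. At day 0 a monocyte/macrophage-like cluster led by Cd74 and H2-Aa held 58.3 ± 44.5 CPM of Dcstamp over 3 libraries. That level rests on few molecules, since the whole class held 11 Dcstamp UMIs at day 0.

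Nfatc1 changed by at most 0.39 on the log2 scale over all cells. It was at 37.0, 38.4, 41.6 and 38.8 CPM at day 0, 38.9, 36.0 and 32.1 at day 3, 34.1, 25.9, 29.0 and 31.6 at day 7, and 39.3, 40.4, 42.1 and 39.3 at day 21. The fitted change to day 3 was 0.22 ± 0.09 (adjusted p = 0.043) although the mean CPM was lower at day 3 (35.7) than at day 0 (38.9), so that its direction rested on the scaling factors, with the same 0.22 from TMM and RLE. That call was lost with DESeq2 (adjusted p = 0.066) and without day 0 replicate 1, 2 or 4 or day 3 replicate 1 or 2 (adjusted p = 0.0638 to 0.145). It rose by 0.39 ± 0.09 from day 7 to day 21 (adjusted p = 0.00584), where the libraries did not overlap, and by 0.20 ± 0.07 from day 0 to day 21 (adjusted p = 0.034), a call lost with DESeq2 (adjusted p = 0.0508) and without day 0 replicate 1, 2 or 4 or day 21 replicate 1, 3 or 4 (adjusted p = 0.058 to 0.087). The difference at day 7 was -0.19 ± 0.10 (adjusted p = 0.127). Among monocyte/macrophage-like cells it was at 31.3, 29.1, 32.5 and 44.7 CPM at day 0 and 21.3, 19.3, 20.5 and 20.9 at day 7, a difference of -0.51 ± 0.20 (adjusted p = 0.0554), with -0.47 ± 0.23 at day 3 (adjusted p = 0.101) and -0.14 ± 0.22 at day 21 (adjusted p = 0.696). From day 7 to day 21 the difference in these cells was 0.42 ± 0.13 (adjusted p = 0.0401). It did not pass with DESeq2 (adjusted p = 0.089) or without any single library other than day 21 replicate 4 (adjusted p = 0.0573 to 0.139), and its sign turned to -0.15 at a finer clustering (Leiden resolution 2) and to -0.12 once the Mmp9/Acp5/Ctsk cluster was counted in. In stromal-like cells it fell by 0.39 ± 0.13 to day 7 (adjusted p = 0.0208) and by 0.53 ± 0.11 to day 21 (adjusted p = 0.00188), the latter with the sign turned to 0.14 once tenocyte-like cells were added.

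Counted together over all cells, 7 of the 8 genes passed the filter for day 3 against day 0, of which 6 were higher and 1 lower, where 74.6% of all genes tested were called. For day 7 against day 0, 5 of 8 were higher and none lower (background 63.5%), and for day 21 against day 0, 5 of 6 higher and none lower (51.8%). For day 21 against day 7, 2 of 8 were higher, Tnfrsf11b and Nfatc1, and 6 lower (44%). In monocyte/macrophage-like cells the calls were 1 of 3, 2 of 5 and 1 of 3 tested for days 3, 7 and 21 against day 0, each of them higher (52.4%, 35.2% and 25.6%), and for day 21 against day 7 Nfatc1 was higher, with the sign that turned as given above, and Acp5 lower of 4 tested (14.2%). The members tested there without a call and not yet given were Dcstamp at day 7 against day 0 (-0.57 ± 0.56, adjusted p = 0.465) and Tnfrsf11a from day 7 to day 21 (-0.01 ± 0.15, adjusted p = 0.981). In stromal-like cells Tnfsf11 alone was higher of 3 at day 3 (66.2%), 3 of 4 were higher and Nfatc1 lower at day 7 (54.9%) and at day 21 (37.9%), and Tnfrsf11b and Acp5 were higher of 6 for day 21 against day 7 (35.4%). Not called in stromal-like cells were Acp5 (0.28, adjusted p = 0.222) and Nfatc1 (0.04, adjusted p = 0.867) at day 3, and from day 7 to day 21 Tnfrsf11a (-0.69 ± 0.37, adjusted p = 0.172), Atp6v0d2 (-0.85 ± 0.55, adjusted p = 0.25) and Nfatc1 (-0.12 ± 0.10, adjusted p = 0.387). The genes that passed the filter are not all 8, and with backgrounds this high the counts are not read as a result about them.

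Whether a gene's change differed between the myeloid and the stromal class was tested as an interaction. From day 0 to day 3, 29.2% of 11243 genes differed, among them Tnfrsf11a (-2.18 ± 0.61, adjusted p = 0.00588) and Acp5 (2.79 ± 0.39, adjusted p = 8.53e-07), where a positive value is a larger change in monocyte/macrophage-like cells. The value of Tnfrsf11a rests on 4 stromal UMIs at day 0. At day 3 the stromal-like libraries held 2.37 to 2.89 CPM of it, in sums with 1310 to 1443 CPM of macrophage markers. The part of macrophage RNA in that level was not tested. From day 0 to day 7 (20.9% of genes) Acp5 differed again (3.57 ± 0.55, adjusted p = 3.85e-05), and from day 0 to day 21 (10.4%) none of the 5 members tested did, Acp5 included (0.93 ± 0.51, adjusted p = 0.298). The values of Acp5 against day 0 rest on 12 monocyte/macrophage-like UMIs at day 0. From day 7 to day 21 (11.6%) Acp5 differed by -2.64 ± 0.27 (adjusted p = 2.18e-05), the fall in the macrophages standing against the rise in the stroma. Dcstamp differed by -3.13 ± 0.92 (adjusted p = 0.0390), a value that rests on 10 stromal UMIs of day 21, all in replicate 4. For p7N3 against day 7 no gene passed in edgeR (0% of 13420, with 1131 at an unadjusted p under 0.05).

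The Mmp9/Acp5/Ctsk cluster was the site of the highest levels of the osteoclast genes, and it varied with the day. It made up 0.590% of cells at day 0 (21 cells), 3.82 ± 0.723% at day 3, 1.35 ± 0.349% at day 7, 0.593% at day 21 (34 cells) and 1.66 ± 0.327% with p7N3. Libraries with at least 10 such cells held Acp5 at 593, 804 and 1047 CPM at day 3, 3233, 3249, 3028 and 4187 at day 7, and 1845 and 495 at day 21. Dcstamp was at 1.92, 0.681 and 5.66 CPM at day 3 and 35.7, 73.2, 39.8 and 70.0 at day 7. Ocstamp was at 15.3, 14.98 and 19.8 CPM at day 3 and 70.0, 76.2, 83.2 and 127 at day 7, and Atp6v0d2 at 80.9, 104 and 97.7 against 303, 352, 351 and 359. For all 4 genes every day 7 library exceeded every day 3 library. Nfatc1 was at 177, 105 and 147 CPM at day 3 and 255, 267, 145 and 245 at day 7, and Tnfrsf11a at 101, 77.6 and 84.2 against 72.7, 73.2, 70.5 and 80.2, which overlap. As the cluster was led by 2 of the genes, these values were not tested.

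Cells with UMIs of at least 2 of Atp6v0d2, Dcstamp and Ocstamp were counted next, since osteoclasts express these 3 genes together. There were 186, of which 124 were in the Mmp9/Acp5/Ctsk cluster (19.3% of it), 52 among monocyte/macrophage-like cells (0.362% of them), 6 among dendritic cell-like and 4 among stromal-like cells. None was found among 3561 cells of day 0, which allows a share of up to 0.0842%. They were 0.640 ± 0.155% of a library's cells at day 3 (37 cells), 0.616 ± 0.268% at day 7 (80 cells), 0.124 ± 0.0894% at day 21 (7 cells) and 0.535 ± 0.0585% with p7N3 (62 cells). These cells were deep, with a median of 17816 UMIs against 6092.5 in monocyte/macrophage-like cells with none of the 3 genes, and depth differs between the days. With every cell thinned to 1500 UMIs, which left out 298 cells of day 0, 0, 3, 15, 1 and 12 such cells remained at day 0, 3, 7, 21 and with p7N3, or 0%, 0.0518%, 0.112%, 0.0187% and 0.105%, and the limit at day 0 became 0.0919%. At that depth the day 3 and day 21 shares lay below this limit, and those of day 7 and p7N3 lay close above it. The limit pools the cells of the 4 day 0 libraries, and the other shares rest on few cells. The absence at day 0 was therefore not read as a difference from any of these groups. Of the 186 cells, 1.08% were among the highest doublet scores, against 1.85% of the monocyte/macrophage-like cells with none of the 3 genes and 7.45% (48 cells) of the Mmp9/Acp5/Ctsk cluster.

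Genes outside the 3 that chose these cells were then described. Over 11 libraries with at least 10 such cells, and against the monocyte/macrophage-like cells of the same libraries with none of the 3 genes, Acp5 was at 5393 ± 2324 CPM against 85.4 ± 24.8, Nfatc1 at 261 ± 69.1 against 22.1 ± 2.23 and Tnfrsf11a at 84.2 ± 16.8 against 33.7 ± 2.78, higher in 11 of 11 libraries each. Ctsk, the collagen-cleaving cathepsin K, was at 5997 ± 3189 CPM against 46.9 ± 29.8, and Mmp9 at 3122 ± 1455 against 21.8 ± 16.8. Car2, the carbonic anhydrase that supplies protons, was at 88.5 ± 41.6 CPM, Itgb3, an integrin chain of the sealing zone, at 58.9 ± 36.4, and Src, a kinase needed for the ruffled border, at 87.3 ± 27.2. Oscar, a costimulatory receptor, was at 37.3 ± 24.3 CPM and higher in 10 of 11 libraries. Other genes of macrophages did not move together. Irf8, a repressor of osteoclast formation, was at 37.0 ± 11.6 against 130 ± 26.3 CPM and Adgre1, which encodes F4/80, at 27.4 ± 14.7 against 278 ± 34.3, lower in all 11 libraries. Csf1r, the M-CSF receptor, was at 445 ± 92.4 CPM against 562 ± 34.0, higher in 0 of 11 libraries. Cd68, a lysosomal protein of macrophages and osteoclasts, was at 861 ± 287 against 784 ± 80.1, higher in 7 of 11 libraries. Calcr, the calcitonin receptor of mature osteoclasts, was near 0 in both. The cells were chosen by UMIs of 3 genes and so lean to deep cells, and no test was made. Of them, 124 were in the Mmp9/Acp5/Ctsk cluster, and the monocyte/macrophage-like cells set beside them leave that cluster out. The differences, above all in Mmp9, Acp5 and Ctsk, can therefore not be told apart from membership of that cluster.

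**Figure D5:**
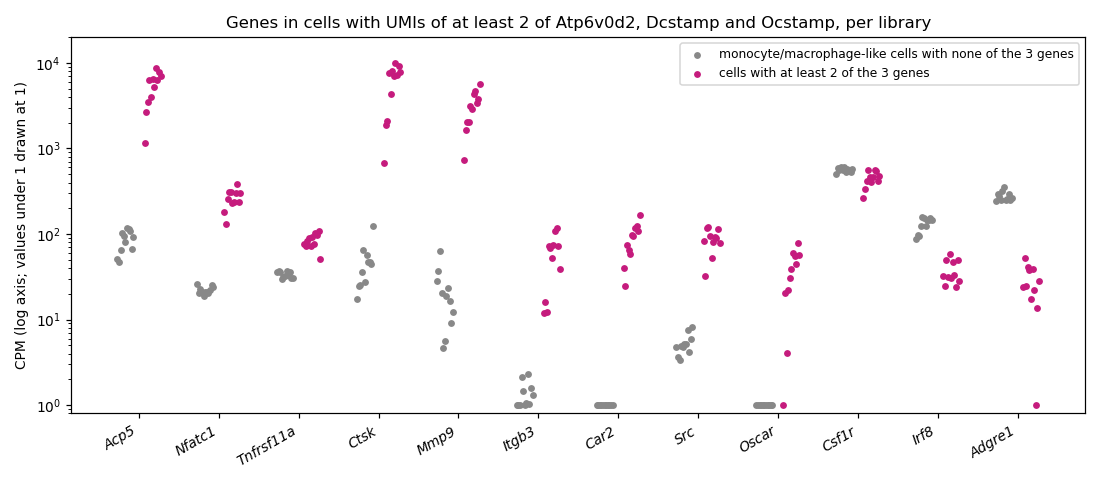
CPM per library, on a log axis, of 12 genes in cells with at least 2 of Atp6v0d2, Dcstamp and Ocstamp (magenta) and in monocyte/macrophage-like cells with none of them (grey), over 11 libraries. Acp5, Nfatc1, Ctsk and Mmp9 lie higher in the magenta cells in every library and Irf8 and Adgre1 lower.

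The other genes of the pathway were followed in lists by role. Of 16 genes for cues that induce RANKL and their receptors, 13 rose and 2 fell over all cells at day 3, and 10 rose and 2 fell at day 7, where 74.6% and 63.5% of all genes were called, with medians of 1.20 and 0.61 on the log2 scale against medians of all genes tested of -0.00315 and 0.00133. Il1b rose by 4.58 ± 0.24 and Osm, the macrophage cytokine oncostatin M, by 4.21 ± 0.31 at day 3, while Lifr fell by 1.09 ± 0.16. In stromal-like cells 13 of 15 rose and 1 fell at day 3 (background 66.2%), and Vdr, the vitamin D receptor, rose by 3.94 ± 1.22 at day 7 and 4.35 ± 0.69 at day 21. Il1b, a cytokine of myeloid cells, was called higher in stromal-like cells at day 3 (5.96 ± 0.33), where the macrophage and granulocyte markers in those sums were also highest. Their part in it was not tested. From day 7 to day 21 over all cells 4 rose and 7 fell (background 44%), Il1b by -2.30 ± 0.23.

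Of 22 genes of RANK signalling, 16 rose and 4 fell over all cells at day 3 (median 0.50, background 74.6%), led by Spi1, which encodes PU.1 (3.41 ± 0.22), and Plcg2 (2.52 ± 0.19), and 2 rose and 10 fell at day 21 (median -0.18, background 51.8%). Within monocyte/macrophage-like cells the list was mixed, with 4 of 19 higher and 5 lower at day 3 (background 52.4%) and 3 of 21 higher and 6 lower at day 7 (35.2%), where Mitf, a partner of PU.1 in osteoclasts, rose by 1.42 ± 0.29. Of 6 tested genes of costimulation and M-CSF, 4 rose and 2 fell at day 3 over all cells (74.6%): Trem2 (4.25 ± 0.29) and Tyrobp (3.67 ± 0.21) rose, and the ligands of the M-CSF receptor, Csf1 (-0.62 ± 0.11) and Il34 (-1.69 ± 0.22), fell. Csf1 fell in stromal-like cells too, by 2.21 ± 0.16 at day 7, and Il34 rose by 1.35 ± 0.15 there from day 7 to day 21. Of the 6 repressors, 4 rose at day 3 over all cells and none fell (74.6%), but within monocyte/macrophage-like cells 1 rose and 3 fell at both day 3 (52.4%) and day 7 (35.2%), Rbpj by -1.05 at day 7.

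Of the osteoclast effectors, 10 of 15 tested rose and 2 fell at day 3 over all cells, and 9 of 15 rose and 1 fell at day 7 (medians 0.79 and 0.84), against backgrounds of 74.6% and 63.5%. Mmp14, a membrane-bound collagenase, rose by 2.37 ± 0.11 at day 7 and Ctsk by 2.63 ± 0.14 at day 21. In monocyte/macrophage-like cells 6 of 12 rose and 2 fell at day 7 (35.2%), with Mmp14 at 5.32 ± 0.32 and Ctsk at 3.69 ± 0.44. Mmp9 fell there by 2.94 ± 0.38, with the sign turned to 0.28 once the Mmp9/Acp5/Ctsk cluster was counted in. In stromal-like cells Ctsk rose by 1.72 ± 0.10 and Mmp14 by 1.34 at day 21, and Ctsk rose by 1.03 ± 0.09 from day 7 to day 21. Within libraries the log2 difference of Ctsk, monocyte/macrophage-like over stromal-like, was -2.42.

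The p7N3 libraries were compared with day 7 to ask whether the CD47 peptide changed these genes, a comparison that shares the day 7 libraries with those above. Tnfsf11 over all cells was at 13.7, 16.3, 32.5 and 29.7 CPM with p7N3 against 15.8, 13.5, 15.6 and 16.7 without, so that replicates 3 and 4 stood above all day 7 libraries and the others among them. The difference was 0.57 ± 0.25 (95% interval 0.01 to 1.14, adjusted p = 0.404). In stromal-like cells the levels were 24.6, 26.6, 54.8 and 46.8 CPM against 30.5, 20.2, 22.7 and 26.2, a difference of 0.62 ± 0.24 (interval 0.08 to 1.15, adjusted p = 0.268). The 3 clusters that held most Tnfsf11 at day 7 were 56.2%, 46.5%, 53.0% and 54.5% of stromal-like cells with p7N3, at 33.8, 39.9, 82.4 and 64.5 CPM, against 28.2% to 50.8% at day 7. Neither value passed the threshold, and neither interval shows that the groups were alike.

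Over all cells the other genes lay closer together. The difference was 0.14 (interval -0.20 to 0.47) for Tnfrsf11a, 0.11 (-0.30 to 0.52) for Tnfrsf11b, 0.24 (-0.22 to 0.71) for Acp5, -0.12 (-0.58 to 0.34) for Atp6v0d2, 0.06 (-0.66 to 0.78) for Dcstamp, 0.27 (-0.40 to 0.93) for Ocstamp and 0.12 (-0.11 to 0.35) for Nfatc1. Acp5 was at 154, 123, 116 and 94.3 CPM with p7N3, within the range of day 7 except for the first. In monocyte/macrophage-like cells Atp6v0d2 was at 40.2, 31.6, 19.1 and 34.3 CPM against 34.7, 45.6, 57.1 and 60.6, a difference of -0.66 ± 0.21 (interval -1.12 to -0.20) that did not pass (adjusted p = 0.43). The other differences in these cells were -0.03 (-0.21 to 0.16) for Tnfrsf11a, -0.12 (-0.46 to 0.22) for Acp5, -0.55 (-1.17 to 0.06) for Dcstamp, 0.21 (-0.52 to 0.94) for Ocstamp and 0.13 (-0.07 to 0.32) for Nfatc1. In stromal-like cells they were 0.31 (-0.19 to 0.80) for Tnfrsf11a, 0.19 (-0.20 to 0.58) for Tnfrsf11b, -0.06 (-0.47 to 0.35) for Acp5, -0.28 (-1.33 to 0.77) for Atp6v0d2 and 0.13 (-0.15 to 0.41) for Nfatc1. In all, none of 8, 6 and 6 members tested by edgeR in all cells, monocyte/macrophage-like and stromal-like cells was called, with 1 at an unadjusted p under 0.05 in each and none called by DESeq2. Of all genes, edgeR called 0% of 14882, 0% of 10911 and 0.00738% of 13543 (1 gene), with 1827, 878 and 2106 at an unadjusted p under 0.05, while DESeq2 called 158, 23 and 303. No gene of the 5 lists was called over all cells.

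The genes whose levels followed each member most closely over 103 sums of a library and cell type (13 types) were named by Pearson's r of log levels. For Tnfsf11 they were Bcat1 (0.78), Il1rl1 (0.78) and Chl1 (0.76), for Tnfrsf11a Rnpep (0.85), Tcirg1 (0.84) and Ms4a6d (0.84), and for Tnfrsf11b Igsf10, Col1a1 and Dkk3 (0.84 each). Acp5 was followed by Frrs1 (0.83), Atp6v0d2 by Slc37a2 (0.85) and Atp6v1b2 (0.82), another pump subunit, Dcstamp by Atp6v0b (0.75), Ocstamp by Dna2 (0.81) and Nfatc1 by Xpr1 (0.74). These sums share libraries and depth, and the correlations are descriptions without a test.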

How the data were processed

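The values are UMI counts per gene and cell barcode, deposited by the authors without normalization for 27998 genes. Per the methods of the study, reads of droplet libraries were processed with Cell Ranger against mm10, and the submitters' processing notes name Cell Ranger and Seurat. Those notes give GRCh38, a human build, for some libraries, which cannot hold for mouse genes, and the counts were used as mm10. The file of day 0 replicate 1 holds 737280 barcodes, the others filtered lists.

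Cells needed 500 genes or more, and no more than 25% mitochondrial UMIs. Cells were clustered in scanpy 1.11.5 (2000 variable genes without 75 member and list genes, 30 principal components, 20 neighbours, Leiden resolution 0.8 with leidenalg 0.10.2), giving 33 clusters. A cluster was named when at least 3 fixed markers of a type were in at least 25% of its cells at a log2 fold of at least 1 over the median cluster, a reference set after clusters had been seen. Doublets were scored and not removed. UMIs were summed per library and type with at least 10 cells and tested with edgeR 4.0.16 (quasi-likelihood, TMM, filterByExpr, adjusted over all genes tested, threshold 0.05, the libraries of both groups only). A 95% interval is the change plus or minus its SE times the t quantile. Replicate numbers did not pair the libraries (correlations of deviations -0.157 to 0.206). All 27 pairs of libraries of the same group differed by more than counting noise.

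Members, lists and marker sets were chosen with earlier results of these data known. The naming rule was all 8 members in every comparison, given with their values wherever they passed the filter, and of each list the 2 largest called changes in each direction, some of which are left out here. Alternatives were DESeq2 1.42.0, RLE factors, no filter on low counts, a replicate block, leaving out single libraries, using only replicates 1 to 3, fitting the 5 groups at once, at most 10% mitochondrial UMIs, removal of the top 3.9% of doublet scores, Leiden resolution 2, counting tenocyte-like and chondrocyte-like clusters as stromal-like and no library block. No cluster was named chondrocyte-like, so the alternative meant to add both types added the tenocyte-like cluster only. The Mmp9/Acp5/Ctsk cluster added to the monocyte/macrophage-like cells was an alternative chosen after the data were seen. The tests were checked on simulated data. The software was R 4.3.3 and Python 3.11.15 with scipy 1.17.1, pandas 2.3.3 and numpy 2.4.6. Genotype, reads and images were not analysed here.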

Additional observations from a re-analysis of the deposited data

Results flagged for a closer look

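Values of a library were set apart where the gap to its nearest neighbour took up most of the range of its group. Chance gives this in about 1 of 20 groups of independent, normally spread values. Some of the groups here count the same molecules again or lie near 0, so that rate does not apply to them as a set. Of 97 groups checked, 11 had such a library. Replicate 4 of day 21 accounted for several of them. It held 12.3 CPM of Tnfsf11 over all cells, where the others held at most 4.34, and 25.4 CPM in stromal-like cells, where the others held at most 6.56. Its ratio of Tnfsf11 to Tnfrsf11b UMIs was 0.726 over all cells and 3.03 in stromal-like cells, and its stromal-like cells held 0.865 CPM of Dcstamp. This library also had the highest share of stromal-like cells, 13.5%, in the 3 clusters that held most Tnfsf11 at day 7. Inside these clusters it held 67.5 CPM of Tnfsf11, against 27.5 and 33.6 in replicates 1 and 3, while replicate 2 had only 9 such cells. In the other stromal-like cells it held 13.2 CPM, against 3.40 to 5.00 in the other day 21 libraries. The part of that share and of these levels was not tested. The replicate 4 libraries of day 0, day 7, day 21 and p7N3 carry sample numbers apart from the rest. Whether they differ for that reason was not tested either.

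Among day 0 libraries, replicate 1 stood apart for Acp5 over all cells (15.05 CPM), replicate 3 for Tnfrsf11b in stromal-like cells (3.74 CPM) and replicate 2 for Acp5 in stromal-like cells (32.8 CPM). In the Mmp9/Acp5/Ctsk cluster, day 7 replicate 1 was low for Atp6v0d2 (303 CPM) and p7N3 replicate 4 low for Tnfrsf11a (57.1 CPM). In stromal-like cells of p7N3, Dcstamp was at 0.275 CPM in replicate 3.

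By the interaction test, monocyte/macrophage-like cells and stromal-like ones differed in the changes of Tnfrsf11a from day 0 to day 3 (-2.18), of Acp5 from day 0 to day 3 (2.79), from day 0 to day 7 (3.57) and from day 7 to day 21 (-2.64), and of Dcstamp from day 7 to day 21 (-3.13). The value of Tnfrsf11a rests on 4 stromal UMIs at day 0, and that of Dcstamp on 10 stromal UMIs of day 21, all in replicate 4. Those of Acp5 against day 0 rest on 12 monocyte/macrophage-like UMIs at day 0.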

How the results depend on the processing

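With p7N3 against day 7, 0 members were called under every alternative run, in all cells and both lineages. Members called over all cells and within libraries stayed within 1.5 times their number under every alternative. In monocyte/macrophage-like cells the number called for day 3 against day 0 was 1, and 4 without the filter on low counts, 2 in the single fit of 5 groups, 2 with replicates 1 to 3 and 1 to 2 with a library left out. For day 21 against day 0 it was 1, and 3 without the filter, 2 in the single fit, 2 at a Leiden resolution of 2, 2 with the Mmp9/Acp5/Ctsk cluster added and 1 to 2 with a library left out. For day 21 against day 7 it was 2, and 1 with DESeq2, 1 with replicates 1 to 3 and 1 to 3 with a library left out (3 without day 21 replicate 4, 1 without any other). In stromal-like cells the number for day 3 against day 0 was 1, and 3 without the filter, 2 in the single fit, 2 with the tenocyte-like cluster added, 2 with replicates 1 to 3 and 1 to 3 with a library left out. For day 7 against day 0 it was 4, and 2 to 5 with a library left out (2 without day 0 replicate 1, 5 without day 0 replicate 2). For day 21 against day 7 it was 2, and 5 with the tenocyte-like cluster added. The replicate numbers paired no libraries, and the replicate block gave 1 call in place of 2 for day 21 against day 7 in monocyte/macrophage-like cells, a Dcstamp change of 1.31 (adjusted p = 0.0253) for day 7 against day 0 over all cells and a Tnfsf11 change of -1.26 (adjusted p = 0.0225) for day 21 against day 7 in stromal-like cells.

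Directions reversed in 9 cases. In monocyte/macrophage-like cells, Mmp9 for day 7 against day 0 was 0.20 and Nfatc1 for day 21 against day 7 was -0.15 at a Leiden resolution of 2, and 0.28 and -0.12 with the Mmp9/Acp5/Ctsk cluster added. With the tenocyte-like cluster added, Tnfrsf11b for day 7 against day 0 was -0.97, and Nfatc1 was 0.14 for day 21 against day 0 and 0.50 for day 21 against day 7. Nfatc1 in monocyte/macrophage-like against stromal-like cells was 0.44 at a resolution of 2 and 0.27 with the cluster added. The added or regrouped cells are part of these alternatives by construction, and no other cause was tested. The day 0 libraries held the fewest UMIs, which limits what can be said of genes scarce there, such as Tnfsf11, Atp6v0d2, Dcstamp and Ocstamp.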

Other observations

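Tnfsf11 was also found in T/NK lymphocyte-like cells, at 40.9 ± 44.7 CPM at day 0 (3 libraries), 23.96 ± 9.34 at day 7 and 26.4 ± 10.7 with p7N3. The day 0 level rests on few molecules, since all day 0 cells together held 9 Tnfsf11 UMIs. Nfatc1 in lymphatic endothelial-like cells was at 207 ± 28.1 CPM at day 0 (2 libraries), 72.9 ± 10 at day 7 and 162 ± 59.3 at day 21. Ocstamp in dendritic cell-like cells was at 14.5 ± 7.67 CPM over the libraries, and these cells held 20.03% of its UMIs. B lymphocyte-like cells held 94.9 ± 76.7 CPM of Acp5 at day 0.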
